A study of Homo sapiens with 6 samples.

Results

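A set of 10 genes was followed here: the mesenchymal transition factors SNAI1, SNAI2, ZEB1, ZEB2, TWIST1 and TWIST2, the epithelial splicing regulators ESRP1 and ESRP2, and the epithelial transcription factors GRHL2 and ELF3. All probe sets that the platform annotation gave to exactly 1 of these genes were taken, whatever their values, which gave 20 probe sets for 9 of the 19775 genes with a probe set of their own. ESRP2 has no such probe set and is given no level. Per the labels the cells of both groups were Capan-1, an established line of human pancreatic carcinoma cells; whether both groups are the same line was not tested, and a locus at which they differ is given below. In 3 samples the cells carried human p16INK4a cDNA (the product of CDKN2A) driven by a CMV promoter, and 3 samples were mock-transfected; per the protocols, which make no distinction between groups, transfected cells were kept in hygromycin and G418. Both groups are numbered V1 to V3, and nothing says whether a number is a clone, a culture or a day. P-values therefore set the difference between groups against the scatter of these particular samples, and that scatter may be technical. Each array gave log2 expression levels, in which a probe set of an unexpressed transcript reads about 2 to 4, so a level under 4 is treated as background.

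Epithelial-mesenchymal transition is the program by which epithelial cells loosen their junctions and take on traits of migrating mesenchymal cells. Snail, ZEB and TWIST proteins are DNA-binding factors that induce it, Snail and ZEB proteins mainly by repressing E-cadherin and other junction genes through E-box sequences. ESRP1 and ESRP2 are RNA-binding proteins that keep epithelial exons in transcripts such as those of CD44 and FGFR2, and GRHL2 and ELF3 are transcription factors of epithelial differentiation. ZEB factors and epithelial regulators such as ESRP1 and GRHL2 are described as repressing each other.

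Factors of both classes changed in both directions. TWIST1 and ZEB2 were at background in the mock samples and well expressed in the p16 samples, while SNAI2 was expressed in mock samples and at background in p16 samples. ZEB1 and SNAI1 were not called in the main test, and ZEB1 was called higher only when the V number was added as a block. Of the epithelial regulators, ESRP1 and GRHL2 were higher in p16 samples and ELF3 was far lower. Of the 9 genes, 8 had a probe set bright enough to test (3 or more of the 6 samples at a level of 4 or above), of which 4 rose, 2 fell and 2 were not called (limma, Benjamini-Hochberg adjusted p under 0.05). TWIST1 and ZEB2 passed that filter through the p16 samples alone and SNAI2 through the mock samples alone. In these bulk samples a lower level in every cell and a smaller share of expressing cells cannot be told apart. Over the array 42.0% of 11658 genes were called, 19.5% higher and 22.5% lower, so calls were common among all genes. At the level of probe sets 10 of 14 tested were called, against 37.2% of all tested probe sets.

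The samples as a whole set the frame for these values. Across tested probe sets, 2 samples of a group correlated at 0.927 to 0.991 and 2 samples of different groups at 0.716 to 0.781. CDKN2A, on its brightest probe set, read 5.61, 6.43 and 6.01 in the mock samples V1, V2 and V3 and 12.13, 13.01 and 12.67 in the p16 samples, 96.1-fold higher (adjusted p = 5.4e-05). MTAP, the methionine salvage gene beside CDKN2A that a p16 cDNA does not carry, read 2.06 to 2.07 in mock and 10.77 to 11.35 in p16 samples, at least 133-fold higher (adjusted p = 5.5e-06). The groups thus differ at a locus outside the cDNA. Whether the p16 and mock cells differ in more than the cDNA was not settled from the labels, so each difference given here is one between the samples so labelled, and the part of this locus in them was not tested. As means over their tested probe sets, CDKN2A differed by 8.24 against 6.59 on the brightest, and MTAP by 6.72 against 8.99. When the V number was added as a block, 67.9% of genes were called, 32.4% higher and 35.5% lower.

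Carcinoma markers were checked against the label. All 9 epithelial and duct markers lay at or above 4 in every mock sample, and 7 did so in every p16 sample, the exceptions being CEACAM5 and CEACAM6. Of these 9 genes 7 fell in p16 samples and none rose, and their log2 levels summed to between 111.7 and 114.6 in mock and between 86.6 and 89.5 in p16 samples. The 6 leukocyte and 6 endothelial markers on the array were under 4 in every sample. Of 9 fibroblast markers, 5 were under 4 in every sample (COL1A2, COL3A1, DCN, PDGFRA and FAP), and LUM rose from 2.72 to 8.92. COL1A1 (7.89 in mock, 7.76 in p16) and THY1 (4.81 and 4.84) were at or above 4 in every sample. Neither was called (limma adjusted p = 0.75 and 0.88). PDGFRB, the remaining fibroblast marker, was under 4 in every mock sample and reached 4 in some but not all p16 samples. It was too dim to test. The summed log2 level was 30.2 to 30.9 in mock and 38.2 to 40.4 in p16 samples, a rise carried in large part by LUM.

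**Figure D1:**
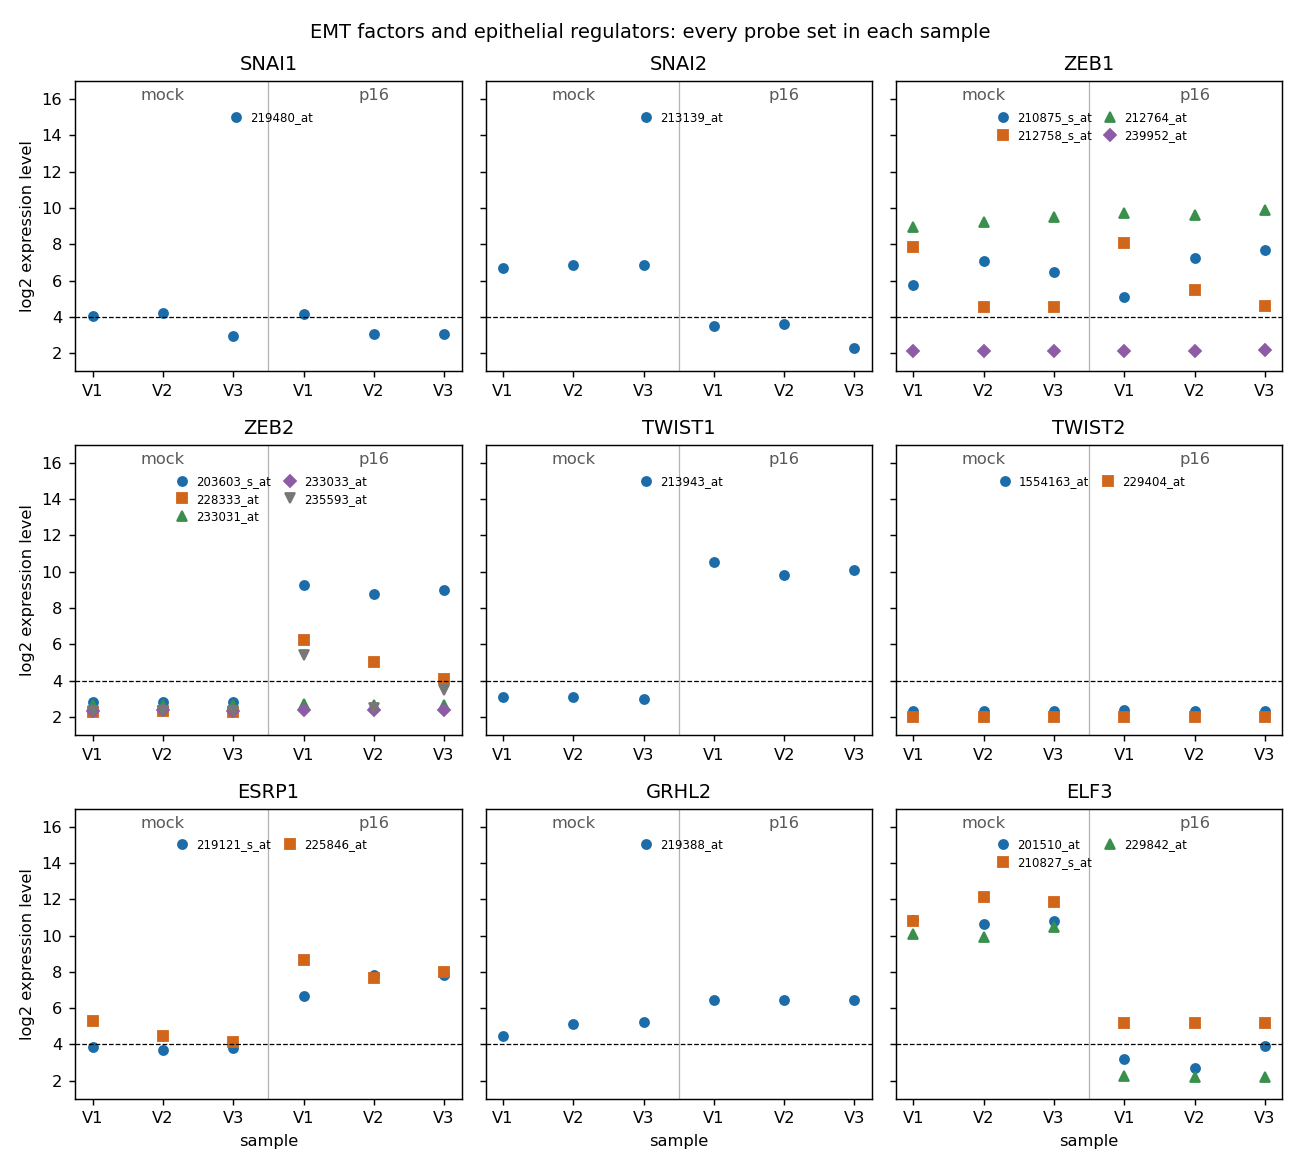
Log2 expression level (y axis) of all 20 probe sets in the 6 samples (x axis, mock V1 to V3 then p16 V1 to V3), with 1 panel a gene, a symbol for each probe set and a dashed line at 4. TWIST1 and the brightest ZEB2 probe set lie under 4 in mock samples and near 9 to 10.6 in p16 samples, while SNAI2 and ELF3 show the opposite step.

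TWIST1, a basic helix-loop-helix factor of mesoderm and neural crest, had the largest fitted rise among the 8 genes. Its only probe set read 3.10, 3.11 and 2.97 in mock samples V1 to V3 and 10.56, 9.84 and 10.12 in p16 samples. All 3 p16 samples were high, all 3 mock samples were at background, and the groups lay far apart. Taking each mock value as 4, the rise was at least 72.3-fold. The fitted change was 7.11 (SE 0.22, limma adjusted p = 1.4e-05), or 6.18 with values under 4 raised to 4 (adjusted p = 2.3e-05), so its size rests partly on values at background. Its relative TWIST2 stayed at background on both of its probe sets, at 1.97 to 2.32 in mock and 1.99 to 2.36 in p16 samples, and was not tested.

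ZEB2, a zinc finger and homeodomain repressor also called SIP1, rose on its brightest probe set. The values of probe set 203603_s_at were 2.82, 2.84 and 2.81 in mock samples and 9.27, 8.78 and 9.02 in p16 samples. The groups did not overlap, and the p16 samples had an SD of 0.24 (n = 3). This was a rise of at least 32.5-fold (fitted change of 6.20, SE 0.18, limma adjusted p = 1e-05; 5.02 with values under 4 raised to 4, and 4.52 as the mean over its tested probe sets). Its 4 other probe sets gave less. Probe set 228333_at read 2.28 to 2.30 in mock samples and 6.24, 5.05 and 4.09 in p16 samples V1, V2 and V3 (at least 2.19-fold, adjusted p = 0.0094), and with every value under 4 raised to 4 it was not called (adjusted p = 0.16). Probe set 235593_at passed 4 in p16 V1 alone, at 5.43, while V2 and V3 stayed under 3.49. The remaining pair, 233031_at and 233033_at, stayed under 2.70 in all samples. The ZEB2 signal was thus high on 1 probe set, intermediate and uneven on others, and at background on a further pair.

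ZEB1, the close relative of ZEB2, was expressed in both groups. Its brightest probe set, 212764_at, read 8.96, 9.20 and 9.49 in mock samples and 9.72, 9.60 and 9.87 in p16 samples. Every p16 sample lay above every mock sample, by a small margin. The difference was 0.51 (SE 0.20), or 1.43-fold, and was not called (limma adjusted p = 0.095); with the replicate block it was called higher (adjusted p = 0.028). Groups that do not overlap were common on the array: 27.3% of tested genes had every p16 sample above every mock sample and 29.1% every p16 sample below, 56.4% in all. Among the 8 genes here the counts were 5 and 2. The other expressed ZEB1 probe sets followed the V number more than the group. Probe set 212758_s_at read 7.85 in mock V1 and 8.05 in p16 V1, but 4.55 to 4.56 in the other mock samples and 4.58 to 5.49 in the other p16 samples. Probe set 210875_s_at went the other way, with V1 lowest in each group at 5.78 (mock) and 5.10 (p16) against 6.47 to 7.71 elsewhere. Their differences between groups, 0.39 and 0.24, were not called (adjusted p = 0.84 for each), and the fourth probe set, 239952_at, was under 2.17 in every sample. ZEB1-AS1, an antisense RNA gene beside ZEB1 that was picked after its values were seen, fell. It read 9.67, 8.62 and 8.76 in mock and 6.76, 6.38 and 6.77 in p16 samples, 5.2-fold lower (adjusted p = 0.0028).

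SNAI2, the zinc finger repressor known as Slug, fell. Its probe set read 6.69, 6.87 and 6.87 in mock samples and 3.49, 3.60 and 2.31 in p16 samples. All mock samples were moderate and close together, and all p16 samples were at background. The fall was at least 7.01-fold (fitted change of -3.68, SE 0.37, limma adjusted p = 0.00091; -2.81 with values under 4 raised to 4). The founding member of that family, SNAI1 or Snail, hardly left background. It read 4.02, 4.21 and 2.94 in mock and 4.17, 3.05 and 3.06 in p16 samples, so the groups overlapped. The difference of -0.30 (SE 0.47) was not called (adjusted p = 0.67), and no fold is given.

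ELF3, an ETS-family factor of simple and squamous epithelia, had the largest fitted fall of the 8 genes, and all 3 of its probe sets fell. Probe set 210827_s_at, the brightest, read 10.79, 12.12 and 11.83 in mock samples and 5.20, 5.19 and 5.19 in p16 samples, 83.8-fold lower (change of -6.39, SE 0.36, limma adjusted p = 9.4e-05). Probe set 201510_at read 10.85, 10.66 and 10.78 in mock and 3.17, 2.68 and 3.91 in p16 samples, at least 109-fold lower. Probe set 229842_at read 10.10, 9.92 and 10.46 in mock and 2.24, 2.20 and 2.22 in p16 samples, at least 71.4-fold lower. The mock samples were high on each probe set and no p16 sample came near them. On 2 of the 3 probe sets the p16 samples were at background, while 210827_s_at read just above 5 in each of them (SD 0.007, n = 3). Whether that reading is remaining ELF3 transcript or the background of this probe set was not tested. The mean change over the 3 probe sets was -7.28.

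The promoters of ELF3 and ZEB2 are shown because these genes moved far in opposite directions and because ZEB and Snail factors bind the E-box. This pair was thus picked after the values were seen. Sequences are the 250 bases before the RefSeq start of each gene (GRCh38.p14), in the gene's own direction, with capitals marking CACCTG or its reverse complement CAGGTG; ELF3 lies on the plus strand at chr1:202010337-202010586 and ZEB2 on the minus strand at chr2:144520120-144520369.
ELF3: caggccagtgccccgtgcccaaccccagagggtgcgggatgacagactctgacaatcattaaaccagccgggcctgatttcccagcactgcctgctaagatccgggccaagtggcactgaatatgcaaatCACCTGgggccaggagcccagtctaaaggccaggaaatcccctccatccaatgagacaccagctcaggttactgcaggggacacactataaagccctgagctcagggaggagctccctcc
ZEB2: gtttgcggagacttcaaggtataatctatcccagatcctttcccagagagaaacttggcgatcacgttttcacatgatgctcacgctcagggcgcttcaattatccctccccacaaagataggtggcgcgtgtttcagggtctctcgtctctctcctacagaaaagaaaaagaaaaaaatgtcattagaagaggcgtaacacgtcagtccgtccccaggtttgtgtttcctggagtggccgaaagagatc
ELF3 holds 1 such E-box, which begins 120 bases before the start. ZEB2 holds none. Windows of 300 bases (250 before and 50 after the start) were searched on both strands for CACCTG, for ACCGGT, the core of the grainyhead site, and for GGAAGT, an ETS core. Of the 35116 windows in the reference used, which does not cover every gene, 20.6%, 1.83% and 22.8% held these letters. The ELF3 window held neither of the other motifs and the ZEB2 window none of the 3. The search gave 10 windows for 4 of the genes here, the others being ZEB1 and TWIST2. SNAI2, ESRP1 and GRHL2 were left out of this search, so nothing is said of their promoters. ZEB1, which was not called in the main test, held the E-box letters at some of its starts but not at others. TWIST2, at background in all samples, held no E-box letters. The ETS core lay in the TWIST2 window and in some of the ZEB1 windows, and the grainyhead core in none of them. These matches describe letters and no binding was measured.

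**Figure D2:**
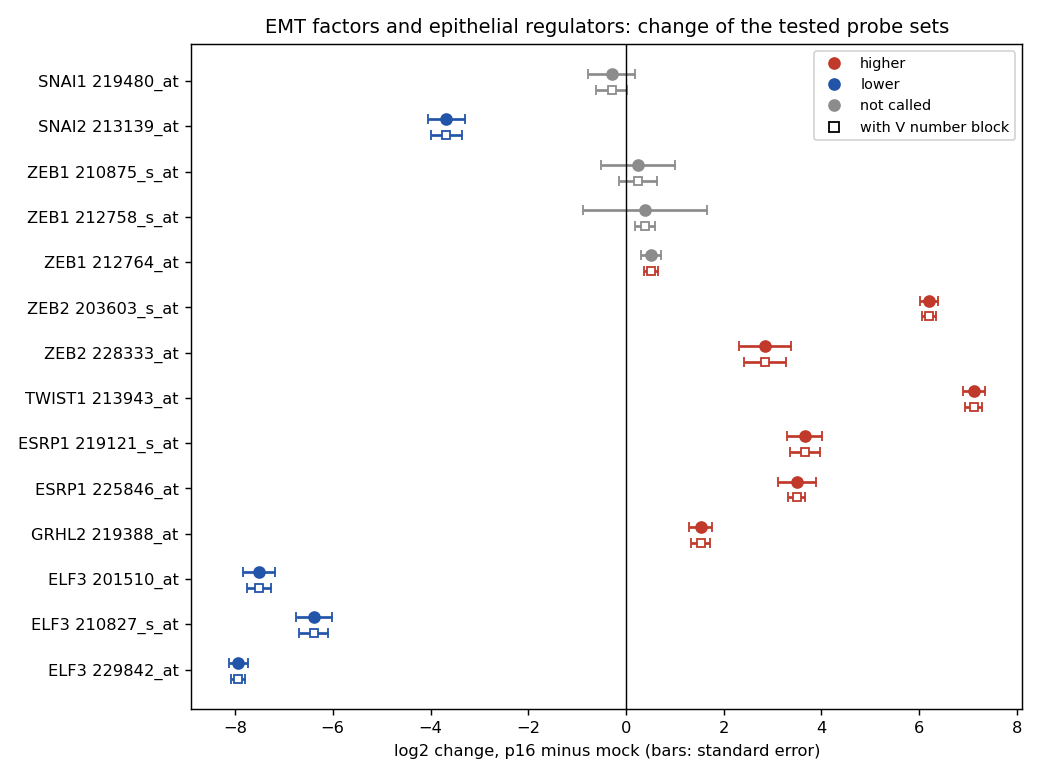
Log2 change, p16 minus mock (x axis), of the 14 tested probe sets (y axis), with filled circles and standard error bars from the fit without a block and open squares from the fit with the V number as a block; red is higher, blue lower and grey not called. The 3 ELF3 probe sets lie between -7.94 and -6.39, and the ZEB1 probe sets lie near 0, with 212764_at called only with the block.

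ESRP1, which promotes epithelial exon choice, rose on both of its probe sets. Probe set 225846_at read 5.28, 4.44 and 4.11 in mock samples and 8.63, 7.68 and 8.02 in p16 samples. Its groups lay more than 2 log2 units apart, and within each group V1 was the highest. The gene was 11.3-fold higher in p16 samples (change of 3.50, SE 0.39, limma adjusted p = 0.0014). Probe set 219121_s_at read 3.83, 3.71 and 3.82 in mock and 6.64, 7.85 and 7.85 in p16 samples, at least 10.9-fold higher (adjusted p = 0.00083), here with V1 the lowest p16 sample. The array measures how much ESRP1 transcript there is and not the exons it acts on.

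GRHL2, a grainyhead factor that maintains E-cadherin and junction genes, rose by a smaller step. It read 4.46, 5.10 and 5.22 in mock samples and 6.44, 6.44 and 6.47 in p16 samples. No mock sample reached a p16 sample, and the p16 samples were nearly equal. The rise was 2.88-fold (change of 1.52, SE 0.24, limma adjusted p = 0.0047). Exactly equal values on separate arrays, here V1 and V2 of p16, also occurred for SNAI2 in mock V2 and V3 and for ESRP1 probe set 219121_s_at in p16 V2 and V3, thus in 3 of the 14 tested probe sets and in 4.27% of all tested probe sets. Ties of this kind narrow the spread on which the test rests.

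**Figure D3:**
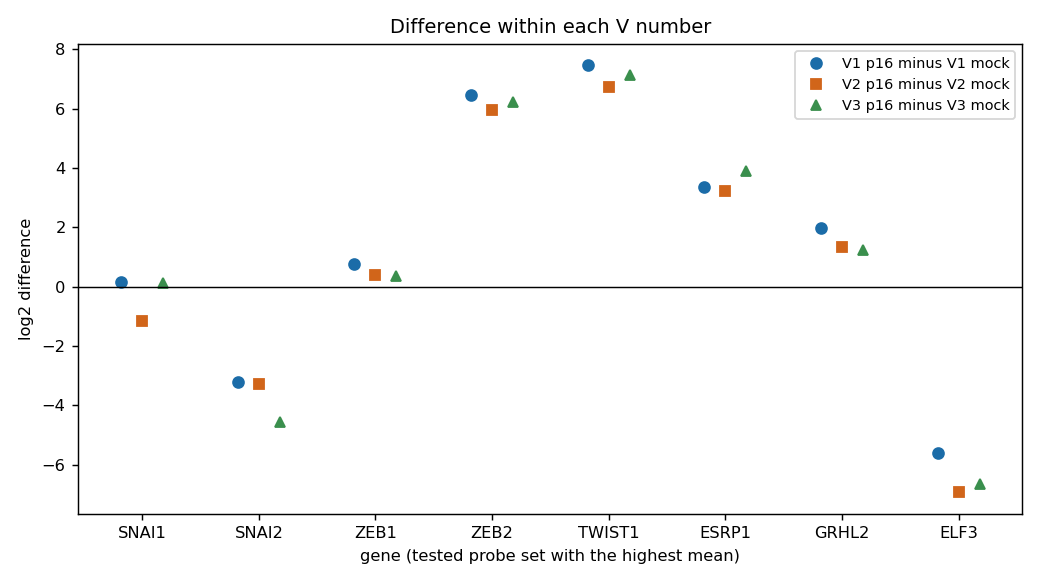
Log2 difference between the p16 and the mock sample of the same V number (y axis) for the 8 tested genes (x axis), each on its brightest probe set. The 3 differences of a gene share 1 sign in every gene but SNAI1, and those of TWIST1 run from 6.74 to 7.46.

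Within each V number the direction was the same for 7 of the 8 genes. These are the genes whose groups did not overlap, for which a common direction follows from that alone. Over all tested genes such groups made up 56.4%, so at least that share has a common direction too. For ELF3 the 3 differences were -5.59, -6.93 and -6.64 in V1, V2 and V3. For ZEB1 they were 0.76, 0.40 and 0.38, and for GRHL2 1.98, 1.34 and 1.25. SNAI1 differed by 0.15, -1.16 and 0.12 and so had no common direction.

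The genes with the pattern most like each called regulator were found by the root mean square difference of log2 values over the 6 samples, each gene centred on its own mean. VEGFC, the lymphatic growth factor, lay nearest to ZEB2 (0.05), followed by PKIA and BTBD6 (0.12 each). CNRIP1 lay nearest to TWIST1 (0.06), with STC2 and EDNRB, the endothelin B receptor, at 0.13. All these neighbours of ZEB2 and TWIST1 had mock means at background (2.15 to 3.34), as ZEB2 and TWIST1 did. Their likeness in the mock samples is thus one of background readings. DLX4, GALNT14 and TSC22D3 followed SNAI2 at 0.14 to 0.18. PAFAH1B3, DZIP1L and SP4 followed GRHL2 at 0.08 to 0.10. ZNF850, RFLNB and SLC16A1-AS1 (0.24 to 0.26) lay nearest to ESRP1, and KLRK1-AS1, GATM and SUSD2 (0.21 to 0.25) to ELF3. With 42.0% of genes called, many profiles share the step between groups.

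Other factors that induce the transition went both ways. Of 10 on the array 6 could be tested: 1 rose, 2 fell and 3 missed the threshold (2 higher and 4 lower with the block). The 3 of 6 called are a share near the 42.0% over all genes. FOXQ1, a forkhead factor, read 12.68, 12.35 and 12.59 in mock and 2.44 to 2.47 in p16 samples, at least 372-fold lower (adjusted p = 3.7e-06). FOXC2, another forkhead factor, fell at least 6.35-fold (adjusted p = 0.0097), with a fitted change of -2.96, or -2.32 without p16 V3. TCF4, an E-protein partner of TWIST1, rose 5.74-fold, from 5.18 ± 0.51 to 7.70 ± 0.54 (SD, n = 3; adjusted p = 0.0043), and all 4 of its tested probe sets rose, by 3.61 on average against 2.52 on the brightest. The median change of this list was -0.68, against -0.03 over all genes tested.

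Other epithelial transcription factors went both ways. Among the 10 that could be tested 2 rose, 5 fell and 3 missed the threshold (the block gave 2 higher and 6 lower), and the median change was -0.84. That is 70.0% called, against 42.0% of all genes, of which 19.5% rose and 22.5% fell; the difference was not tested. EHF, an ETS factor of the same epithelium-specific subfamily as ELF3, read 12.24, 12.01 and 12.20 in mock and 8.86, 8.05 and 8.41 in p16 samples, 13.0-fold lower (limma adjusted p = 0.00018), and all 6 of its tested probe sets fell. KLF4, a zinc finger factor of epithelial barrier formation, fell 4.33-fold on its brightest probe set (change of -2.11). The mean change over its 2 tested probe sets was -2.18, although only 1 of them was called. TFCP2L1, of the grainyhead family in the wider sense, fell 3.51-fold (limma adjusted p = 0.014, and 0.056 without mock V3). GRHL3 fell at least 2.21-fold (adjusted p = 0.038), but its 3 mock values were exactly equal at 5.14, its fitted change of -1.92 was -1.28 without p16 V2, and the call was lost without any 1 mock sample or without p16 V3 (adjusted p = 0.054 to 0.11). GRHL1 was the other grainyhead gene called, with a rise of 1.57 (adjusted p = 0.033), chosen here after its value was seen to complete the family. Its call was lost without mock V3 or any 1 p16 sample (adjusted p = 0.072 to 0.085), so of the 3 grainyhead genes GRHL2 alone kept its call whichever sample was left out.

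Splicing regulators other than ESRP1 mostly did not pass the test. Of the 15 measured, 1 rose, 1 fell and 13 missed the threshold (3 higher and 3 lower with the block). That is a called share of 13.3% against 42.0% of all genes, and the median change was 0.11. MBNL3, a muscleblind protein, read 4.42, 4.33 and 4.43 in mock and 7.95, 7.01 and 7.11 in p16 samples, 7.8-fold higher (adjusted p = 0.00072). RBM47, an RNA-binding protein of epithelia, read 10.28, 10.70 and 10.73 in mock and 7.44, 7.73 and 7.68 in p16 samples, 7.77-fold lower (adjusted p = 0.00018) and lower on both tested probe sets. ESRP1 and RBM47, both linked to epithelial splicing, therefore changed in opposite directions.

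Genes whose exons ESRP proteins regulate were measured at gene level alone. Here 2 of 13 rose, 5 fell and 6 missed the threshold (the block gave 2 higher and 8 lower), and the median change was -0.66. The called share of 53.8% stands beside 42.0% over all genes, or 67.9% with the block. ITGA6, the laminin receptor subunit, fell 14.1-fold (11.64 ± 0.26 to 7.82 ± 0.36, SD, n = 3; adjusted p = 0.00018; mean change over its tested probe sets -4.80 against -3.82) and TCF7L2, a Wnt pathway factor, fell 4.84-fold with 6 of its 7 probe sets lower. The polarity gene SCRIB rose 2.88-fold (adjusted p = 0.013, and 0.052 without p16 V3). The kinase SLK fell 2.69-fold on its brightest probe set (limma adjusted p = 0.031), the only 1 of its 2 tested probe sets that was called. That call was lost without mock V1, mock V3, p16 V2 or p16 V3 (0.05 to 0.1). Among the best known targets, picked here by name after the values were seen, CD44 differed by -0.67 (adjusted p = 0.26, and 0.0059 with the block) and FGFR2 by -0.47 (adjusted p = 0.20), neither called without a block; levels of splice forms were not analysed here.

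**Figure D4:**
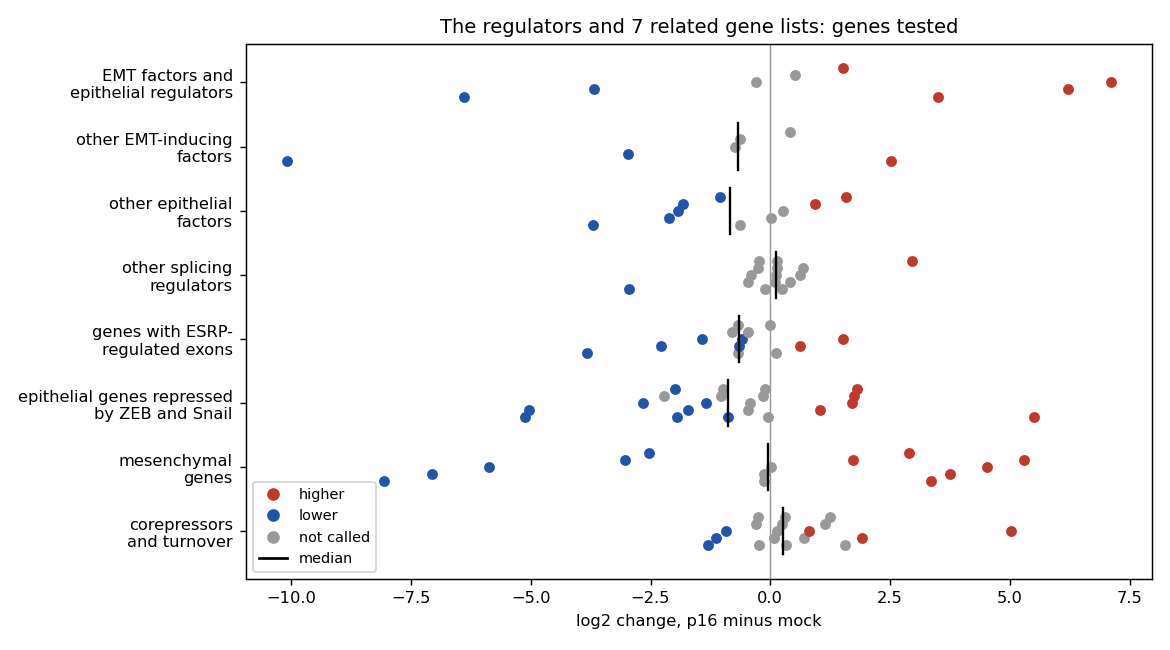
Log2 change, p16 minus mock (x axis), of every tested gene in 8 gene groups (y axis); red is higher, blue lower, grey not called, and black bars are medians of the 7 lists other than the regulators themselves. Mesenchymal genes spread from -8.05 to 5.30 around a median of -0.06.

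Epithelial genes that ZEB and Snail factors are known to repress also split. Here 5 of 21 rose, 8 fell and 8 missed the threshold (the block gave 5 higher and 11 lower), and the median change was -0.88. The called share was 61.9%, beside 42.0% over all genes (19.5% higher and 22.5% lower), and the difference was not tested. CDH1, which encodes E-cadherin, read 13.50, 13.14 and 13.11 in mock and 11.91, 10.93 and 11.03 in p16 samples, 3.88-fold lower (limma adjusted p = 0.005), and remained bright in every p16 sample. The tight junction claudin CLDN4 fell 32.8-fold, with 3 exactly equal mock values, CLDN3 fell at least 29.2-fold (fitted change of -5.12, or -5.73 without p16 V2), and the membrane traffic protein MAL2 fell 6.32-fold. RAB25, a small GTPase of epithelial recycling endosomes, took the opposite course, from 2.07 to 2.09 in mock to 7.56, 7.88 and 7.31 in p16 samples. With every mock value at background this was a rise of at least 12.0-fold. The fitted log2 change was 5.50, or 3.58 with values under 4 raised to 4 (limma adjusted p = 9e-05). EPCAM differed by -1.02 and was not called (adjusted p = 0.072; called lower with the block, adjusted p = 0.0018, and without p16 V1, 0.039).

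Mesenchymal genes split into large rises and large falls. Of 22 on the array 14 could be tested, and 8 were too dim. Of those tested 6 rose and 5 fell, or 78.6% called against 42.0% of all genes, with a median change of -0.06. The difference between these shares was not tested. VIM, the intermediate filament vimentin, read 11.39, 14.23 and 13.61 in mock and 5.60, 8.13 and 7.87 in p16 samples, 58.7-fold lower (limma adjusted p = 0.0062), with V1 the lowest of each group. Its log2 change of -5.87 was -6.72 without mock V1 and -5.08 without p16 V1. CDH2, or N-cadherin, fell on both of its tested probe sets: at least 168-fold on the brighter, from 11.39 ± 0.25 to 3.34 ± 0.03 (SD, n = 3), and 6.97-fold on the other (7.97 to 5.16), with a mean change of -5.43. The calcium-binding protein S100A4 fell 134-fold. SPARC, a secreted matrix glycoprotein, rose at least 16.1-fold (2.71 ± 0.01 to 8.01 ± 0.71). The other 7 called genes of the list were added after their values were seen. Fibronectin, FN1, rose 10.3-fold (10.56 to 13.93, limma adjusted p = 0.00019), and the actin-binding protein TAGLN rose 13.4-fold. The lysyl oxidase LOX rose 23.0-fold, the receptor kinase AXL 7.39-fold and caldesmon, CALD1, 3.3-fold. Smooth muscle actin, ACTA2, fell 8.21-fold, and tenascin C, TNC, fell at least 3.26-fold. In the samples where TWIST1 and ZEB2 were high, standard mesenchymal markers were thus found both lower (vimentin and N-cadherin) and higher (fibronectin). The fibroblast and epithelial marker sums given above moved in the same samples, the fibroblast sum in large part through LUM. Their part in these results was not tested.

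Corepressors and turnover factors of the Snail and ZEB proteins changed in both directions. Here 3 of 18 rose, 3 fell and 12 missed the threshold (the block gave 7 higher and 3 lower), and the median change was 0.27. The called share of 33.3% was not far from the 42.0% over all genes. LOXL2, a lysyl oxidase described as stabilising Snail, read 7.22, 8.14 and 7.97 in mock and 12.32, 13.14 and 12.97 in p16 samples, 32.7-fold higher (adjusted p = 0.00019). The histone deacetylase HDAC2 rose 3.79-fold. The histone demethylase KDM1A, a partner recruited by Snail, fell 2.45-fold (adjusted p = 0.0056), and its cofactor RCOR1 fell 2.19-fold (adjusted p = 0.044), a call lost without any 1 sample except p16 V1 (0.076 to 0.14).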

How the data were processed

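The 6 samples were hybridised to Affymetrix arrays, 1 each; per the labels' protocols, 300 ng of total RNA was used, and transfected cells were selected in RPMI with 15% serum, with G418 (1 mg/ml) beside hygromycin (0.1 mg/ml). The deposited log2 levels come from GCRMA, which the submitters' processing notes name; settings and probe files are not given in the sources used here. The number of arrays limits the precision. Of 54675 probe sets 62 controls were left out; the platform annotation named 1 gene for 41091, several for 1801 and none for 11721. Probe sets at 4 or above in at least 3 of 6 samples (24406, 11658 genes) were tested with limma 3.58.1 in R 4.3.3 (lmFit, eBayes, two-sided), with Benjamini-Hochberg adjustment over all of them and a threshold of 0.05. The brightest tested probe set, by its mean over the 6 samples, stands for a gene. "At least" marks a fold whose lower group had any value under 4, each such value being raised to 4. The main fit took the samples as unpaired, so every call and adjusted p given without mention of a block leaves the V number out. Same-numbered samples deviated together (correlations of 0.81, 0.75 and 0.67), so a fit with the number as a block was run as an alternative. V2 and V3 of different groups also correlated (0.51 and 0.42), and V1 of either group ran against V2 and V3 of the other (-0.74 to -0.62). Deviations were taken from the mean of each group, so they cancel out within a group. With the V1 samples deviating together, negative values against V2 and V3 follow at least in part from that.

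The genes and lists were chosen with earlier results of these data known. From each list up to 4 called genes with the largest change are named, beside CDKN2A, MTAP, CDH1, VIM and EPCAM; per called regulator the 3 nearest patterns are named. The test was checked on simulated data, where it recovered most of the largest changes and missed most of the smaller ones. Far fewer probe sets were changed there than were called in the data, and same-numbered samples did not deviate together. The simulation therefore does not measure how many changes were missed here. A gene that missed the threshold is not shown to be unchanged. Tables and figures used Python 3.11.15, pandas 2.3.3, numpy 2.4.6 and matplotlib 3.10.9.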

Additional observations from a re-analysis of the deposited data

How the results depend on the processing

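The 4 regulators called higher and the 2 called lower kept those calls and directions under all 15 alternatives for the gene values: no filter, a filter at 5, quantile normalization, centring, values under 4 raised to 4, an intensity trend with robust prior, the replicate block, the mean over probe sets, leaving out each sample, and leaving out both V1 samples. Their largest adjusted p (limma) was 0.025, for GRHL2. SNAI1 had no value under the filter at 5. ZEB1 was called under the replicate block alone, which made 5 higher, and its adjusted p ranged from 0.028 to 0.25. Over all genes the block called 7916 against 4895, and leaving out 1 sample at a time called 3484 to 4915. SNAI2, ZEB2 and TWIST1 rest on a background level in 1 group, so their folds depend on the bound of 4. Among other genes named, GRHL3, SLK and RCOR1 each lost the call under 6 alternatives, GRHL1 under 5, TFCP2L1 under 2 and SCRIB under 1, while EPCAM gained one under 3 and CD44 under 2. ZEB2 probe set 228333_at lost its call with values under 4 raised to 4.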

Other observations

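MicroRNAs of the miR-200 family are known to repress ZEB1 and ZEB2 transcripts, and the array holds a probe set for a host gene of that family. MIR200CHG, the host of miR-200c and miR-141, read 2.54 to 2.56 in mock and 2.56 to 2.59 in p16 samples, thus at background in all 6. MIR205HG and MIR205, of a further microRNA known to act on ZEB transcripts, read under 2.71 in every sample. These 3 genes were chosen after the values were seen, and mature microRNAs were not analysed here.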
